A study of Homo sapiens with 6 samples.

Results

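The genes of the inflammasome and of its pore-forming effector gasdermin D were followed in HCT116 cells treated with oxaliplatin. The 10 genes are NLRP1, CARD8, AIM2, PYCARD, CASP1, CASP4, CASP5, IL1B, IL18 and GSDMD. They were picked by gene symbol from a deposited table of 27942 genes, and all 10 were found, each under 1 identifier. HCT116 is an established human colorectal carcinoma line, and the methods describe it as p53 wild-type with a mutated CTNNB1. Cells of 1 group received 0.5 µM oxaliplatin, a platinum drug that forms adducts on DNA, for 24 h (OXA), and cells of the other group were left untreated (NT). Polyadenylated RNA of 3 replicates was sequenced in each group, all from this 1 line, with 32979521 to 40967880 raw counts per library.

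Inflammasomes are cytosolic complexes that turn a danger signal into an inflammatory form of cell death called pyroptosis. A sensor protein recruits caspase-1, directly or through the adaptor ASC, and the active caspase matures the cytokines interleukin 1 beta and interleukin 18 and cuts gasdermin D. The freed part of gasdermin D forms pores in the plasma membrane. Caspase-4 and caspase-5 bind bacterial lipopolysaccharide themselves and also cut gasdermin D. Myeloid cells are the best known site of the pathway, whereas epithelia use selected parts of it.

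Of the 10 genes, 5 had enough counts to be tested, and 1 of them, the sensor gene NLRP1, was higher in OXA. Its level rose 2.20-fold, from 140.2 ± 17.9 to 309 ± 45.7 normalised counts (mean ± SD, n = 3). CARD8, CASP4, IL18 and GSDMD were expressed without a called difference. CASP1 and AIM2 had 0 counts in all 6 libraries, and PYCARD, CASP5 and IL1B had at most 7 counts in any library. Normalised counts are raw counts divided by 1 scaling factor per library (TMM). A gene was called when edgeR's quasi-likelihood test gave it an adjusted p-value under 0.05 over the 13727 genes tested. This background was 2.78% of genes higher and 2.29% lower in OXA. No member was called lower. At an unadjusted p-value under 0.05 the counts were again 1 higher and 0 lower, where 10.7% of all genes tested were higher and 11.1% lower. The median log2 fold change of the 5 was 0.17, against 0.023 over all genes tested.

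The levels of the 10 genes spanned the range from abundant to undetected. To compare genes, counts were divided by the merged exon length of the gene and scaled to TPM, which corrects for depth and for that length. Merged exons cover every annotated transcript of a gene and can be longer than any 1 of them. They came to 20157 bases for NLRP1 and 5085 for GSDMD, so levels and order between genes depend on this choice of length. IL18 stood first with 45.1 ± 5.07 TPM in NT, above 72.3% of the genes tested. GSDMD followed with 15.5 ± 6.59 TPM and CASP4 with 9.03 ± 1.74 TPM, and the libraries of these neighbours overlapped. CARD8 had 4.04 ± 0.11 TPM and lay below every CASP4 library. NLRP1 had 0.81 ± 0.10 TPM in NT, above 7.74% of the genes tested. PYCARD came next with 0.35 ± 0.13 TPM, below every NLRP1 library. IL1B and CASP5 were at a few hundredths of a TPM in NT and at 0 in OXA, and CASP1 and AIM2 were at 0 throughout. In OXA the first 6 genes kept the same order, with 38.6 ± 3.03 TPM for IL18 and 1.70 ± 0.23 TPM for NLRP1, and GSDMD and CASP4 overlapped again.

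**Figure D1:**
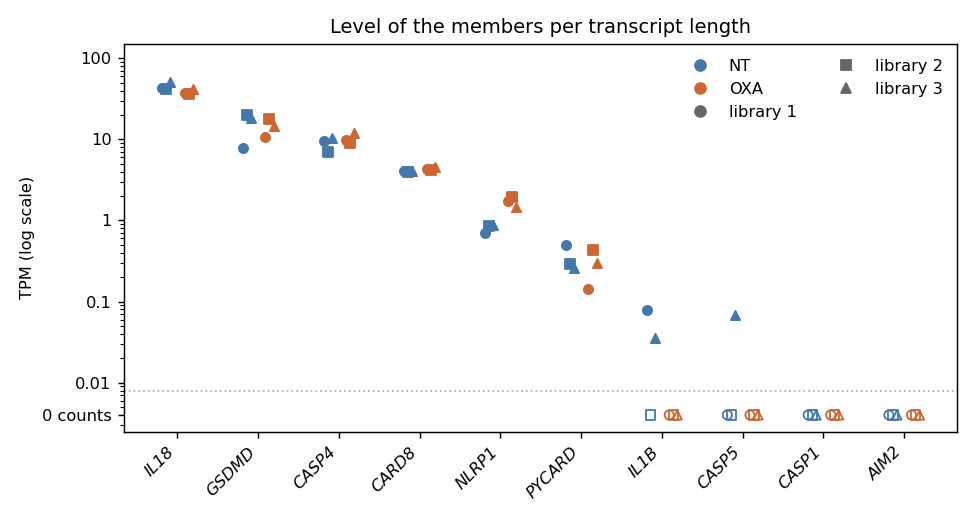
Level of each of the 10 genes in TPM (log axis) in the 3 NT and 3 OXA libraries, ordered by the NT mean. Symbols mark the library number, and open symbols on the lowest line are libraries with 0 counts. IL18 lies near 45.1 TPM in NT, NLRP1 moves from 0.81 to 1.70 TPM, and CASP1 and AIM2 have no count in any library.

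NLRP1 (ENSG00000091592, chromosome 17 of GRCh38 from 5499415 to 5619424, minus strand) encodes a sensor that carries its own CARD domain and is held inactive by the peptidase DPP9. Its normalised counts were 119.6, 149.7 and 151 in NT libraries 1 to 3, and 314, 352 and 261 in OXA libraries 1 to 3. The groups did not overlap, with OXA above NT throughout. The log2 fold change was 1.14 (95% interval 0.72 to 1.55, edgeR adjusted p = 0.0157). Within same-numbered libraries it was 1.39, 1.23 and 0.79. By size NLRP1 stood at place 108 among the 381 genes called higher. In RNA from whole cultures, more cells with the transcript and more transcript per cell cannot be told apart.

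The direction of NLRP1 held in each alternative tried, but its call did not. When 1 library was left out, the log2 fold change stayed between 1.03 and 1.22. The call was lost without NT library 2, NT library 3, OXA library 1 or OXA library 2, with edgeR adjusted p values of 0.0525, 0.0614, 0.0878 and 0.0797. Over all genes, those fits called 153, 115, 66 and 94 genes higher, against 381 with all 6 libraries. The call was kept without NT library 1 or OXA library 3 (edgeR adjusted p = 0.0101 and 0.0472). With the authors' gene-specific scaling factors in the edgeR fit, the log2 fold change was 1.03 and the adjusted p = 0.0848. These factors raised both libraries numbered 2 for NLRP1, by 1.27 in NT and 1.19 in OXA, and lowered the other 4. A block for the replicate number in the edgeR fit gave an adjusted p of 0.00781, and block and authors' factors together gave 0.00705. DESeq2 (adjusted p = 2.32e-05) and limma-voom (adjusted p = 0.0188) also kept the call. So did edgeR with no filter beyond 1 count (adjusted p = 0.0117) and at 1 CPM in 3 libraries (adjusted p = 0.0176). The paper names NLRP1 among its upregulated genes. Annotation places 1580 bases of another gene, ENSG00000286190, on the same strand within NLRP1, but that gene held 26 counts over all 6 libraries.

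CARD8 (ENSG00000105483, chromosome 19 from 48180770 to 48255946, minus strand) encodes the other sensor of this build, also held by DPP9, which recruits caspase-1 without ASC. It had 466, 450.0 and 457 normalised counts in NT and 513, 498 and 530.1 in OXA. The groups did not overlap, a pattern that 14.5% of all genes tested showed upward and 14.4% downward. The difference was small and was not called (log2 fold change 0.17, 95% interval -0.084 to 0.42, edgeR adjusted p = 0.426). On the authors' normalised values the CARD8 groups overlapped. ZSWIM9 lies over 16851 bases of CARD8 on the opposite strand, with 2180 counts of its own. The strand setting of the counting is not given in the sources used here, and whether reads of CARD8 and ZSWIM9 were mixed was not tested.

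The NLRP1 and CARD8 changes were compared directly by their ratio, which needs no scaling between libraries. The log2 ratio of NLRP1 to CARD8 raw counts was -1.96, -1.59 and -1.59 in NT, and -0.71, -0.50 and -1.02 in OXA. The ratio was higher in each OXA library than in any NT library, and the group means differed by 0.97 on the log2 scale. The exact two-sided permutation test gave p = 0.10, the smallest value that 3 libraries against 3 allow.

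AIM2 (ENSG00000163568, chromosome 1 from 159061599 to 159187843, minus strand) encodes a sensor of cytosolic double-stranded DNA and had 0 counts in every library. At these depths a count of 0 allows a level of up to 0.0732 to 0.0910 CPM (raw counts scaled to library size) in a library. PYCARD (ENSG00000103490, chromosome 16 from 31201486 to 31203450, minus strand) encodes the adaptor ASC. PYCARD-AS1 is annotated on the opposite strand of it. Its raw counts were 7, 4 and 4 in NT and 2, 6 and 5 in OXA, and the groups overlapped. The summed counts gave an OXA to NT ratio of 0.888, with a 95% interval of 0.389 to 2.00 from exact binomial counting error alone. In the same libraries, all 75 mitochondrial ribosomal protein genes looked up, which every cell uses, had counts in all 6. Such widely used genes do not show whether the counting could register AIM2 or PYCARD, which was not tested.

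The promoter windows of the members differed in their CG content. Windows of 250 bases before the RefSeq start site (GRCh38.p14) were found for 6 of the 10 genes, the others being NLRP1, CASP1, IL18 and GSDMD. Those of PYCARD, close to silent, and of CASP4 and CARD8, which were expressed, are printed here to show that difference, 5′ to 3′ on the minus strand of the gene, with each CG in capitals. They lie at chr16:31202761-31203010, chr11:104968575-104968824 and chr19:48255947-48256196. The gene spans given in the text are those of GENCODE 44, which places some starts further upstream. The windows of PYCARD, CASP4 and AIM2 lie inside that span. The window of IL1B overlaps the 5′ end of its span, whereas those of CARD8 and CASP5 adjoin theirs.
PYCARD: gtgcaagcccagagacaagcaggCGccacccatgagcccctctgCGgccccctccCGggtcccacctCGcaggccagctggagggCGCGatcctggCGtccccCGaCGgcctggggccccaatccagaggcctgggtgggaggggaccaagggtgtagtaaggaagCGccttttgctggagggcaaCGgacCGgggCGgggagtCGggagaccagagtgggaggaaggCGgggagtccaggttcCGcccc
CASP4: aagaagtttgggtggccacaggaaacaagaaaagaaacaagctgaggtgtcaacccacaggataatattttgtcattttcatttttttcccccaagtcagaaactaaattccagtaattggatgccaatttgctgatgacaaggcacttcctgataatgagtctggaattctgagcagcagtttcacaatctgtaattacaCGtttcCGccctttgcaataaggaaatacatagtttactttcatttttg
CARD8: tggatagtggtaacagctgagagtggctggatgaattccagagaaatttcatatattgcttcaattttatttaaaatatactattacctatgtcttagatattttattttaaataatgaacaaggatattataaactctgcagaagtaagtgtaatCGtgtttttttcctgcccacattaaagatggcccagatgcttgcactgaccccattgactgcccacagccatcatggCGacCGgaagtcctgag
The PYCARD window held 16 CG pairs and 71.2% G and C, more CG pairs than 59.2% of all 27303 windows in that table. CASP4 held 2 CG pairs and CARD8 3, against a median of 11 over all windows. AIM2, with 0 counts, held 2, CASP5 held 0 and IL1B held 1. Windows with few CG pairs thus belonged to expressed and to undetected members alike.

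The same windows were searched on both strands for short motifs. NLRP1, CASP1, IL18 and GSDMD had no window, so their promoters were not searched. The p53 half-site consensus, present in 5.53% of all windows, was in none of the 6, nor was the kappa B consensus (5.05% of windows) or TGACGTCA (1.77%). The core of the interferon-stimulated response element, which 3.07% of windows hold, was found once in AIM2 and at 2 overlapping positions in CASP5. TATAAA (11.1% of windows) was in CARD8, 121 bases before the start. CCGCCC (42.3% of windows) was in CASP4 once and in PYCARD at 2 positions. A match describes the letters only, and no match says only that these letters are not in that window.

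CASP4 (ENSG00000196954, chromosome 11 from 104942866 to 104969366, minus strand) was the member of the inflammatory caspase family that was expressed. It had 546, 410.5 and 590.5 normalised counts in NT and 592, 549.5 and 705 in OXA. The groups overlapped, although each OXA library lay above the NT library of the same number. The log2 fold change was 0.26 (95% interval -0.14 to 0.65, edgeR adjusted p = 0.441), and the block did not bring it under the threshold (adjusted p = 0.0921).

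The neighbours of CASP4 on chromosome 11 were close to or at 0. CASP1 (ENSG00000137752, from 105025397 to 105035250), which encodes the protease at the centre of the canonical inflammasome, had 0 counts in all 6 libraries. CASP5 (ENSG00000137757, from 104994235 to 105023168) had 1 count in NT library 3 and 0 elsewhere. CARD16 and CARD18, which encode CARD-only proteins related to caspase-1, and CARD17, named CARD17P in GENCODE 44, also had 0 counts in every library. Over the 589 kb from CASP4 through CARD18, CASP4 thus held every count of these 6 genes except 1. CASP1, CARD16 and CARD17 share similar CARD sequence, and CASP4 and CASP5 are close relatives, so how the counting divided shared reads is uncertain. The planned ratio of CASP1 to CASP4 could not be computed because CASP1 was at 0.

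**Figure D2:**
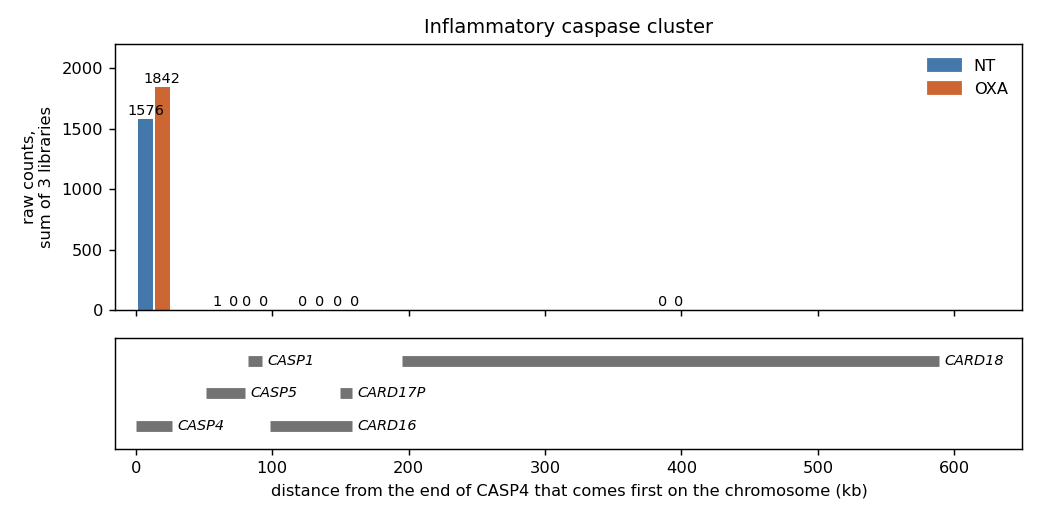
Raw counts summed over the 3 NT and the 3 OXA libraries (upper panel, bars starting at 0) for the genes of the inflammatory caspase cluster, drawn above their positions in kb from the CASP4 end (lower panel). CASP4 has 1576 counts in NT and 1842 in OXA, CASP5 has 1 and 0, and the other 4 genes have 0.

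IL18 (ENSG00000150782, chromosome 11 from 112143253 to 112164096, minus strand) encodes interleukin 18, a cytokine that epithelial cells make as an inactive precursor. Its normalised counts were 948, 948 and 1128 in NT and 887, 855 and 969 in OXA. Each OXA library lay below its same-numbered NT library, but the groups overlapped. The log2 fold change was -0.16 (95% interval -0.43 to 0.11, edgeR adjusted p = 0.487, and 0.156 with the block). IL1B (ENSG00000125538, chromosome 2 from 112829751 to 112836816, minus strand), which encodes interleukin 1 beta, had 2, 0 and 1 raw counts in NT and 0 in each OXA library. Both groups of IL1B were at or under the detection limit of 3 counts per library, so no fold change is given.

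GSDMD (ENSG00000104518, chromosome 8 from 143553207 to 143563062, plus strand) encodes gasdermin D and varied more between libraries than any other tested member. It had 343, 883 and 800.3 normalised counts in NT and 497, 831 and 666 in OXA. Both libraries numbered 1 were low, and the groups overlapped widely. The coefficient of variation was 43.0% in NT, where those of the other 4 tested members lay between 1.77% and 18.2%. The log2 fold change was -0.024 (95% interval -0.82 to 0.77, edgeR adjusted p = 0.979), an interval that leaves room for a change of over 1.5-fold in either direction. With the block, its standard error fell from 0.34 to 0.16 and the estimate became 0.041 (adjusted p = 0.867). The authors' factor for GSDMD was 1.49 and 1.36 in the libraries numbered 1 and between 0.888 and 1.03 in the others, so it moved with this split.

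**Figure D3:**
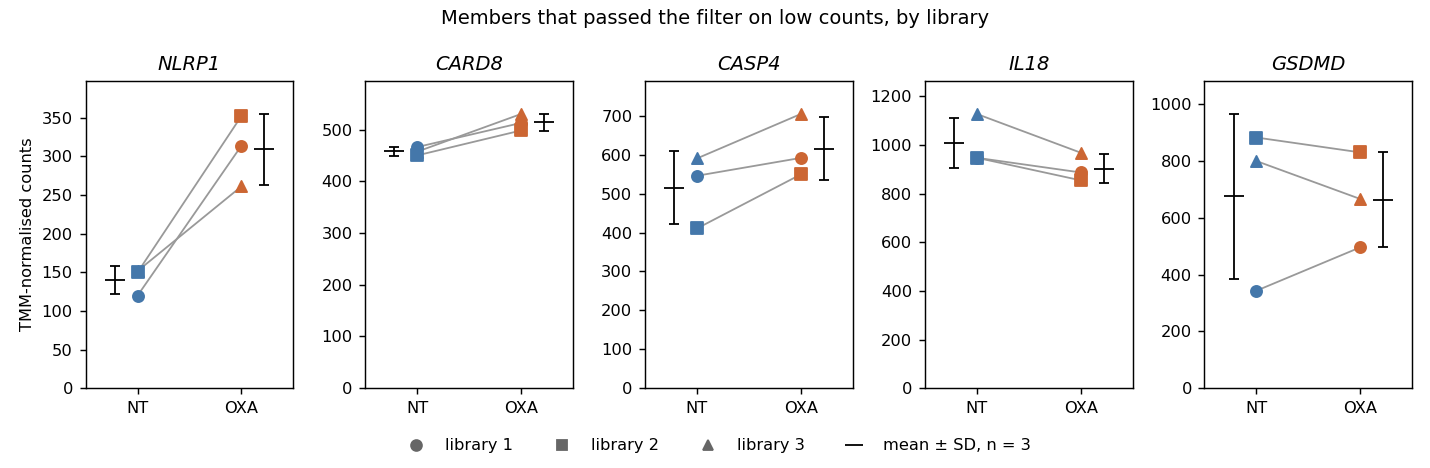
TMM-normalised counts of the 5 tested members in the NT and OXA libraries, with lines joining libraries of the same number and bars giving the mean ± SD (n = 3). Every OXA library of NLRP1 lies above the NT libraries, whose highest value is 151, while GSDMD is low in both libraries numbered 1, at 343 and 497.

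A list of 61 further genes of the pathway was read in the same fit, of which 60 were in the table. Of these, 27 passed the filter on low counts, 10 had 0 counts in every library and 23 had counts below the filter. In the fit by edgeR, 0 of the 27 were called in either direction. At an unadjusted p-value under 0.05, 3 were higher and 2 lower, shares near the 10.7% and 11.1% of all genes tested. DESeq2 called 2, NINJ1 and CASP8, as higher, against 4.80% of all genes with an adjusted p. In the edgeR fit without a block, the median log2 fold change of the 27 was -0.020, with 12 above and 15 below 0. Groups without overlap were seen in 3 of the 27 upward and 4 downward. Over all genes tested, these shares were 14.5% and 14.4%. In the blocked edgeR fit 3 were called higher, NINJ1, CASP8 and TXN, and 2 lower, NLRP2 among them. Under the block, 12.1% of all genes tested were higher and 10.9% lower.

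Among the other sensors, 3 of 10 were tested. NLRP2, an NLR family gene, was the most abundant of them, at 74.8 ± 2.14 TPM in NT. Its normalised counts were 4145, 3983 and 4022 in NT and 3618, 3295 and 3638 in OXA. OXA lay below NT throughout, and the difference of -0.20 on the log2 scale was not called (edgeR adjusted p = 0.202, but 0.0407 with the block). NAIP and NLRC4, which together sense bacterial flagellin, had log2 fold changes of -0.38 and -0.62 without a call (edgeR adjusted p = 0.277 and 0.431). NLRP3, the most studied inflammasome sensor, had 2 counts in NT library 1 and 0 elsewhere, and IFI16, NLRP6, NLRP7, NLRP9, NLRP12 and MEFV also lay below the filter.

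Of the 9 genes for regulators that hold or license the sensors, 8 were expressed and tested. DPP9 differed by 0.19 on the log2 scale (edgeR adjusted p = 0.607) and its relative DPP8 by -0.020 (adjusted p = 0.946). MAP3K20, the ribotoxic stress kinase that phosphorylates NLRP1, had -0.15 (adjusted p = 0.558). TXN, which encodes the thioredoxin that binds NLRP1, was the most abundant at 1093 TPM in NT, with a log2 fold change of 0.27 (adjusted p = 0.278, and 0.0163 with the block). TXNIP was listed at 0 in all 6 libraries, and whether the counting could register it was not tested. None of the 5 decoy genes in the table passed the filter, and 4 of them were at 0, PYDC1 having 1 count in each group.

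Of the genes for pore formation and membrane rupture, 4 of 6 were tested. NINJ1, whose product ruptures the plasma membrane late in lytic death, had 328, 881 and 710.0 normalised counts in NT and 972, 1473 and 1166 in OXA. All OXA libraries were above all NT libraries, but NT library 1 was far below the other NT libraries. The log2 fold change was 0.91 (95% interval 0.14 to 1.68, edgeR adjusted p = 0.165), and within same-numbered libraries it was 1.57, 0.74 and 0.72. With the block it was 0.99 (adjusted p = 0.0158). GSDME, which encodes another pore-forming gasdermin, differed little between groups, at 647 ± 45.8 normalised counts in NT against 652 ± 21.9 (difference 0.011 on the log2 scale, 95% interval -0.24 to 0.26, edgeR adjusted p = 0.969). The log2 ratio of GSDMD to GSDME went from -0.051 ± 0.72 in NT to -0.0042 ± 0.34 in OXA (exact two-sided permutation p = 0.90, n = 3 libraries a group).

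Of 5 genes for other proteases that can cut gasdermins, 2 were tested, with no call without the block. CASP8, the initiator caspase of death receptors, had 1390, 1199 and 1369 normalised counts in NT, against 1942, 1582 and 1739. Its groups did not overlap (log2 fold change 0.41, 95% interval 0.15 to 0.68, edgeR adjusted p = 0.0850, and 0.0104 with the block).

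Cytokine antagonists were low, and 2 of the 7 cytokine and antagonist genes were tested. IL18BP, which encodes a secreted trap for interleukin 18, had 106 ± 19.0 normalised counts in NT against 77.8 ± 5.73 (difference -0.44 on the log2 scale, edgeR adjusted p = 0.248). IL1RN, the interleukin 1 receptor antagonist, had 8.47 ± 3.02 and 16.6 ± 2.69 (log2 fold change 0.95, edgeR adjusted p = 0.198). Of the 7 receptor genes, 4 were tested and none was called, the most abundant being IL1R1 with 12.2 TPM in NT and a log2 fold change of -0.19 (adjusted p = 0.407). Guanylate-binding proteins such as GBP1 help caspase-4 reach lipopolysaccharide. None of the 6 genes of the list that holds them and IRGM passed the filter, and none had more than 9 counts in a library. Per length, IRGM was first of the 6 at 0.185 TPM in NT. Of the transcription factors that drive several members, 4 of 5 were tested without a call. RELA was the most abundant, at 52.9 TPM in NT, and had a log2 fold change of 0.23 (adjusted p = 0.499).

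**Figure D4:**
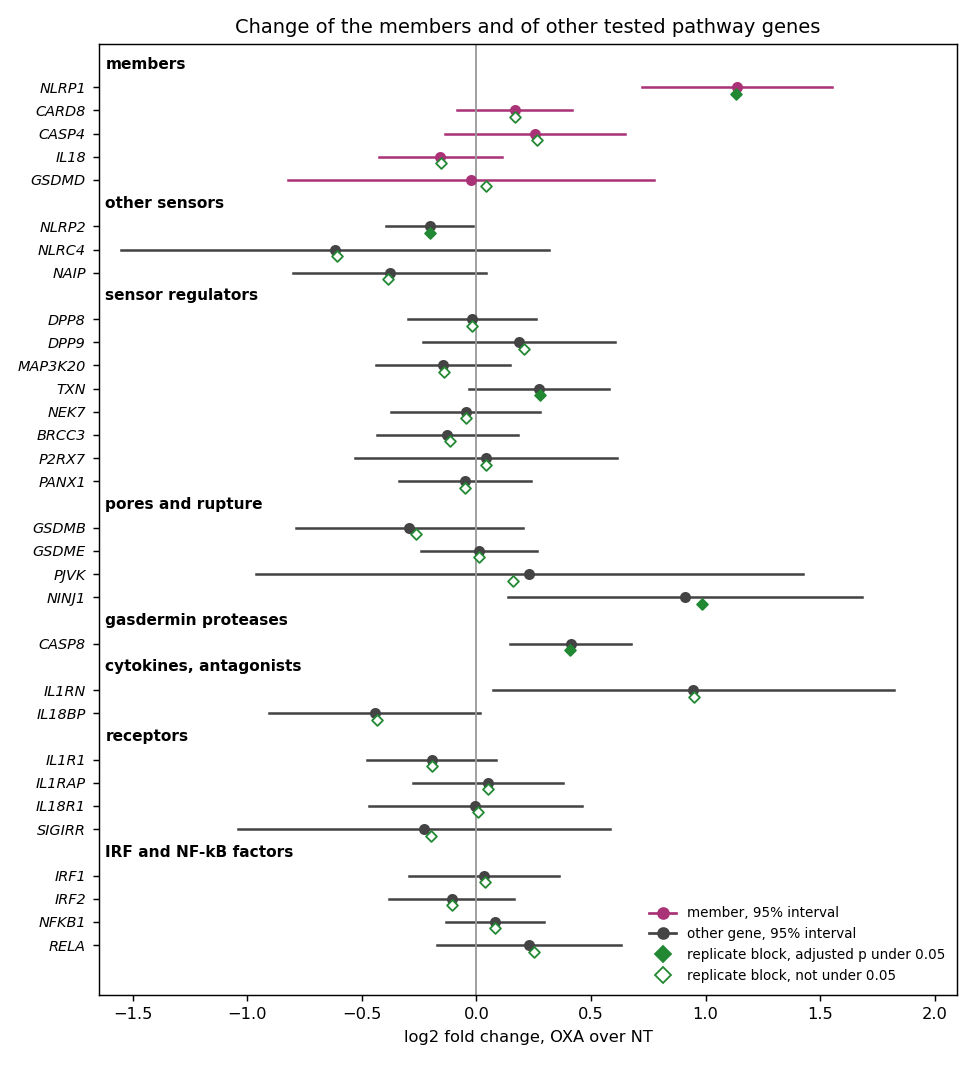
Log2 fold change, OXA over NT, of the 5 tested members and of other tested pathway genes, with 95% intervals from the fit without a block and diamonds for the fit with the replicate block, filled where its adjusted p is under 0.05. NLRP1 lies at 1.14 with an interval from 0.72 to 1.55, and filled diamonds without a call in the first fit are NLRP2, TXN, NINJ1 and CASP8.

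Genes whose levels followed NLRP1 over the 6 libraries were looked for in the whole table. The 3 highest Pearson correlations of log2 CPM were 0.999 for IP6K2, 0.997 for ANK1 and 0.997 for ZNF274, each over 6 libraries that include the difference between groups. IP6K2 rose by 0.55 on the log2 scale (edgeR adjusted p = 0.0209) and ANK1 by 1.39 (adjusted p = 0.0206), whereas ZNF274 was not called (0.22, adjusted p = 0.318). These were picked as the highest over all genes tested and are a description only.

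The labelled cell type was checked against marker genes. Of 10 colon epithelial markers, 9 passed the filter, among them EPCAM with 9963 ± 1012 normalised counts in NT, and CDX1 was at 0. Their summed level was 2054 to 2807 CPM in NT and 2849 to 3284 in OXA, and its part in the results was not tested. KRT8 and KRT18 made up most of this sum. Of the 9 markers, 5 had a log2 fold change above 0 and 4 below, the latter being EPCAM (-0.040), CDH1 (-0.20), VIL1 (-0.38) and KRT20 (-0.48). None was called by edgeR without the block. With the block, 3 were called higher, KRT8, KRT18 and CLDN4 (edgeR adjusted p = 0.0271, 0.0184 and 0.0223). CDH1 was the 1 called lower (adjusted p = 0.0408). Under the block, 12.1% of all genes tested were higher and 10.9% lower. Of 10 myeloid markers only CD68 passed the filter, PTPRC had at most 2 counts in a library, and FCGR3A was at 0. The summed myeloid level was 5.19 to 6.23 CPM in NT and 6.03 to 6.90 in OXA. None of 8 lymphoid markers passed, with sums of 0.231 to 0.353 in NT and 0.146 to 0.195 in OXA. Of 6 fibroblast markers COL1A1 passed and DCN and LUM were at 0, with sums of 3.38 to 8.52 in NT and 4.98 to 8.55 in OXA.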

How the data were processed

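RNA-seq libraries of 3 untreated and 3 oxaliplatin-treated HCT116 replicates were compared, grouped by the sample labels. Per the paper's methods, the authors mapped reads to GRCh38 with STAR 2.7.5b and normalized with DESeq2. The submitters' processing notes also name Trimmomatic 0.32 and RSEM 1.3.3, and the annotation and strand setting used are not given in the sources used here. The authors deposited a raw count per gene and library, used as deposited, and a normalised signal, the count times a factor that differed between genes and libraries, used only in alternatives. The labels do not say whether replicates were separate cultures, so p-values measure the spread between these libraries. Intervals from counts cover counting error only.

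Genes were filtered with filterByExpr (minimum count 10, minimum total 15), scaled by TMM and tested with edgeR's quasi-likelihood test in R 4.3.3 with edgeR 4.0.16. P-values were adjusted by Benjamini-Hochberg over the 13727 genes tested. Standard errors were taken as |log2 fold change| over root F. Alternatives used DESeq2 1.42.0 and limma 3.58.1. TPM used merged exon lengths of GENCODE 44 (27703 of 27942 genes matched). The steps were run on simulated data as a check of the code, which does not show how many calls are false in these libraries. Libraries of 1 group differed by more than sampling noise (chi-square per gene 19.2 to 83.2). The highest values were those of NT library 1, 83.2 against NT library 2 and 75.9 against NT library 3, and the other pairs reached at most 29.6. Deviations of same-numbered NT and OXA libraries from their group means correlated at 0.51, 0.50 and 0.28, all over the limit of 0.1. Differently numbered libraries gave -0.44 to 0.083. Deviations from a group mean sum to 0, so high same-numbered values push the others down, and the contrast is not separate support for pairing. The numbers come from the sample labels, which do not say what they stand for. The fit with the replicate block is given where it changes the call of a member, a named pathway gene or a marker.

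The 10 members, the 61 pathway genes and the marker lists were chosen with earlier results of these data known, NLRP1 among them. Named genes were the members, pathway genes called with or without the block, CARD16, GSDME, the most abundant gene of a role and the 3 genes correlating best with NLRP1. The values of 1 other called pathway gene are not reported here. Others named for being at or near 0, or for their role, were chosen after their values were seen. Alternatives were other scaling, other filters, DESeq2, limma-voom, the authors' factors, a fold change cutoff of 1.5, the block and each library left out.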

Additional observations from a re-analysis of the deposited data

How the results depend on the processing

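NLRP1 was higher in OXA in all 15 alternatives and was called in 9 of them. Called members went from 1 to 0 with the authors' factors and without both libraries numbered 1 (log2 fold change 1.02, edgeR adjusted p = 0.0567), the latter chosen after seeing the data, and lay between 0 and 1 when 1 library was left out. CARD8, CASP4 and IL18 kept their direction and stayed without a call in all 15. GSDMD changed its sign to 0.0091 with the authors' factors, 0.055 with limma-voom, 0.041 with the replicate block and 0.027 with both block and factors, and lay between -0.34 and 0.19 when 1 library was left out, being above 0 without NT library 2 (0.19), NT library 3 (0.093) or OXA library 1 (0.15). The GSDMD to GSDME ratio was -0.17 without both libraries numbered 1 and lay between -0.36 and 0.33 when 1 was left out, turning negative without NT library 1 (-0.36) or OXA library 2 (-0.10). The NLRP1 to CARD8 ratio lay between 0.85 and 1.11 when 1 was left out, and in same-numbered pairs the replicate block gave an exact sign-flip p = 0.25, the smallest that 3 pairs allow. Called pathway genes were 2 higher with DESeq2, 3 higher and 2 lower with the replicate block, 3 higher and 1 lower with the block and the authors' factors (NLRP2 was lost), and 0 to 1 higher when 1 library was left out (CASP8 without NT library 1). Members without overlap between groups were 1 of 5 above on the deposited normalised values (12.3% of all genes tested), and 2 to 3 above and 0 to 1 below when 1 library was left out (17.9% to 21.7% and 16.3% to 21.5% of all genes tested), IL18 being the 1 below without OXA library 3. Over all genes, 381 were called higher and 315 lower. These counts were 241 and 200 with the authors' factors, 633 and 635 with DESeq2, 1664 and 1493 with the replicate block, 1317 and 1167 with block and authors' factors, 219 and 165 without both libraries numbered 1, 198 lower with the fold change cutoff, and 479 lower at 1 CPM in 3 libraries. When 1 library was left out, 66 to 623 were higher and 19 to 571 lower, the highest counts being without NT library 1 and the lowest without OXA library 1. The causes were not tested. The CASP1 to CASP4 ratio was not run because CASP1 had 0 counts. Depth limits PYCARD, CASP5 and IL1B: without a filter on low counts, their edgeR adjusted p values were 0.908, 0.647 and 0.488.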
